A study of Homo sapiens with 8 samples.

Results

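Interferon-stimulated genes were followed across 4 treatments of U373 cells, a human astrocytoma line. The list held 42 genes, and a gene was measured where a probe set of the array was assigned to its symbol alone. This gave 41 of the 18417 genes with such a probe set, and STAT2 was not analysed here. Where a gene had several such probe sets the one with the highest mean was taken, which applied only to PSMB9, whose 3 probe sets held the same values. The 4 groups, with 2 Affymetrix Human Gene 1.0 ST arrays each, were a vehicle control, progesterone at 10 nM, RU-486 at 1 µM, and a combination of the 2 at these doses, all collected at 12 h. RU-486 (mifepristone) is an antagonist of the progesterone receptor that also blocks the glucocorticoid receptor. Sample descriptions write the compound as RU-484 and the cell line field shortens the line to U37, and both were read as RU-486 and U373, the names in the titles and sources. All cells, the vehicle controls included, had first been kept in medium with hormone-free serum, and no interferon or virus was among the labelled treatments. The replicates are labelled as biological, but nothing says that they came from separate cultures, so p-values measure only the spread between these arrays.

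Type I interferons bind a receptor whose kinases JAK1 and TYK2 activate a transcription factor complex that holds STAT2 and IRF9. This complex binds the interferon-stimulated response element (ISRE) in promoters and induces many genes that block steps of viral replication. Interferon-gamma acts instead mainly through the gamma-activated site (GAS). Many of these genes also have a low level in cells that were given no interferon, and astrocytes and glioma cells are able to respond to both interferon types.

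The values are log2 expression levels, so a difference of 1 is a 2-fold difference. Background was taken from 341 olfactory receptor genes, whose median was 4.64 and whose 95th percentile was 6.22. Of the 41 genes, 33 had a mean above that percentile, and 8 did not: CXCL11, DDX60, EPSTI1, IFIH1, IFIT2, MX2, RSAD2 and XAF1. The 7 markers of astrocytoma cells were all above it, among them VIM at 13.37, S100B at 9.59 and GFAP at 7.54. Of 8 measured markers of leukocytes and microglia 2 were above it, LAPTM5 and TYROBP, while the pan-leukocyte gene PTPRC stood at 3.44. The mean of the leukocyte markers was 5.89 to 5.92 on the vehicle arrays, 5.97 to 6.25 with progesterone, 5.98 to 6.04 with RU-486 and 5.97 to 6.03 with the combination. The means of 3 plasmacytoid dendritic cell markers and of 4 endothelial markers spanned 5.34 to 5.70 and 6.35 to 6.51 over the 8 arrays. The part of these markers in the results was not tested. The 2 progesterone arrays stood apart: the SD of the difference between replicates over all genes was 0.35 there, and it was 0.18 between the vehicle arrays, 0.16 with RU-486 and 0.17 with the combination. Since these are bulk samples, fewer cells expressing a gene and less RNA per cell cannot be told apart.

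Most of these genes carry the core of the response element near their start. RefSeq windows of 250 bases before to 50 after the start (GRCh38.p14) were at hand for 35 of the 42 listed genes. The ISRE core, GAAA and again GAAA with any 2 bases between them, searched on both strands (where it reads TTTC, 2 bases, TTTC), was found in 24 of the 35 genes (68.6%), against 4.38% of 27305 genes with a window. The GAS motif TTCNNNGAA, which has the same pattern on both strands, was found in 12 of 35 (34.3%) against 9.38%, and it overlapped the ISRE core in some promoters, such as those of BST2 and EPSTI1. A match is a run of letters and does not show binding. The 10 promoters below are shown because their genes carry the patterns described next, the first 8 from genes that varied most between arrays or were lowest with the combination, and ISG15 and IFITM1 from genes that varied little. Only genes with an ISRE core are shown, and the windows of SAMD9L, IRF9 and CMPK2 held no such core. Each is written 5′ to 3′ along the gene, upstream of the start, with 1 ISRE core in capitals. A further ISRE core in the stretches of IFIT1, IFIH1 and ISG15, and the GAS matches in those of PARP14 and IFITM1, are not marked.
SAMD9 (chr7:93118076-93118145, minus strand): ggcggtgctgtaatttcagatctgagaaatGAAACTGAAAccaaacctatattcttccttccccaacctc
DDX60 (chr4:168318801-168318870, minus strand): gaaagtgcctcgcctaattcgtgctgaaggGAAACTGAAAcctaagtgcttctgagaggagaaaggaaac
IFI44L (chr1:78620345-78620414, plus strand): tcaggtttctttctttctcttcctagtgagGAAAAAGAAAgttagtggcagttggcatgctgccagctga
IFI44 (chr1:78649741-78649788, plus strand): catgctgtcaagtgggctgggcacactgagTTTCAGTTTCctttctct
IFIT1 (chr10:89392490-89392559, plus strand): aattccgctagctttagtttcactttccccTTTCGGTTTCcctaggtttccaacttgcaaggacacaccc
IFIH1 (chr2:162318798-162318867, minus strand): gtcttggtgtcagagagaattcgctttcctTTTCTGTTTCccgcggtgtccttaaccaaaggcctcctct
PARP14 (chr3:122680780-122680838, plus strand): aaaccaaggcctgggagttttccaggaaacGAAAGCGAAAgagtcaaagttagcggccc
CXCL10 (chr4:76023679-76023747, minus strand): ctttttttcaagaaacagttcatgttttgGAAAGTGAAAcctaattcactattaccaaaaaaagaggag
ISG15 (chr1:1013360-1013429, plus strand): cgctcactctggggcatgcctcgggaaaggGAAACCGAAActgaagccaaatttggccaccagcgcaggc
IFITM1 (chr11:313970-314039, plus strand): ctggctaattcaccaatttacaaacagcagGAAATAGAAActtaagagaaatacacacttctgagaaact

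In the fit of all 8 arrays no interferon-stimulated gene passed an adjusted p of 0.05 (limma, Benjamini-Hochberg over 18417 genes). This held in every comparison described below and in the F test over the 4 groups. What the arrays did show was a wide spread of a subset. The difference between the highest and the lowest of the 8 arrays exceeded 1 log2 unit for 9 of 41 genes (22%), against 4.31% of all genes. At the other end the range was under 0.25 for 6 genes (14.6%), against 18.9%. The median range was 0.48 for the 41 genes and 0.38 for all genes. The second progesterone array was the highest of the 8 for 17 of the 41 genes, where 11.6% of all genes had their maximum, and the first combination array was the lowest for 12, where 14.6% of all genes had their minimum.

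**Figure D1:**
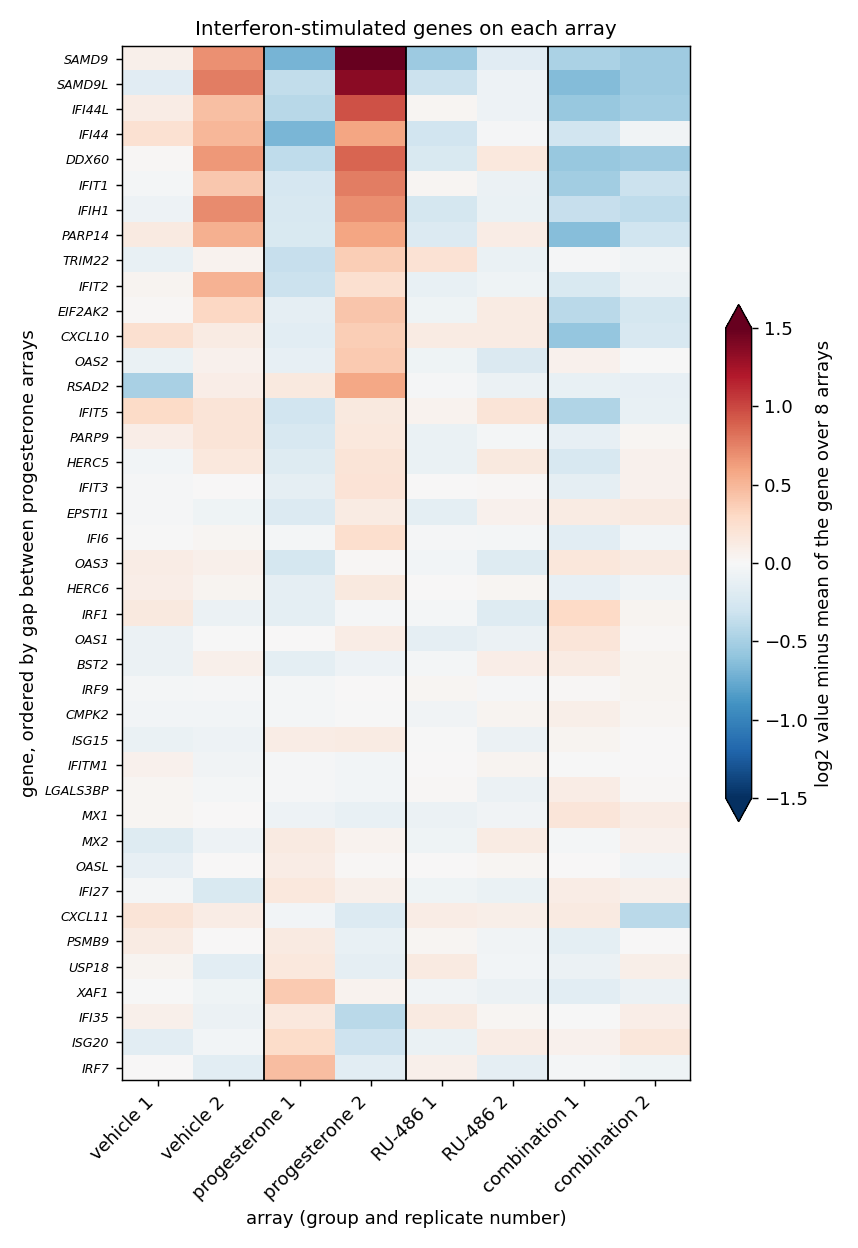
Heat map of the 41 genes (rows, ordered by the gap between the 2 progesterone arrays) on the 8 arrays (columns, by group and replicate); colour is the log2 value minus the gene's mean over the 8 arrays, and colours saturate at 1.5. The upper rows are red on progesterone replicate 2 and blue on progesterone replicate 1 and on the combination arrays, while most lower rows stay pale.

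The genes with the widest spread were SAMD9, SAMD9L and IFI44L. SAMD9, which restricts poxviruses, stood at 6.89 and 7.50 on the vehicle arrays, 6.12 and 8.47 with progesterone, 6.27 and 6.65 with RU-486, and 6.34 and 6.28 with the combination (replicate 1, then replicate 2, here and below). Both progesterone replicates lay outside all the other arrays, one above and one below, and the 4 arrays with RU-486 lay below both vehicle arrays. The gap of 2.35 between the progesterone arrays, 5.1-fold, was the largest of all 18417 genes. SAMD9L, its neighbour and paralog on chromosome 7, stood at 7.18 and 8.11, 6.98 and 8.70, 7.02 and 7.27, and 6.70 and 6.82 in the same order of groups. Its gap of 1.72 ranked 18 among all genes, and the 2 combination arrays were the lowest of the 8. IFI44L, an antiviral protein of the cytoplasm, stood at 6.45 and 6.79, 5.92 and 7.29, 6.37 and 6.26, and 5.77 and 5.83, and its combination arrays were again the lowest.

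The gap between the 2 progesterone arrays was shared by many of the genes. It exceeded 0.5 log2 units, with replicate 2 higher, for 13 of 41, against 7.03% of all genes: CXCL10, DDX60, EIF2AK2, IFI44, IFI44L, IFIH1, IFIT1, IFIT2, OAS2, PARP14, SAMD9, SAMD9L and TRIM22. It exceeded 0.5 in the opposite direction for IFI35 (-0.55), IRF7 (-0.62) and ISG20 (-0.59), 3 of 41 against 4.79% of all genes. Just above 0.5 lay OAS2 at 0.51 and CXCL10 at 0.52, and just under it RSAD2 and IFIT5 at 0.44 each. The vehicle arrays differed the same way for 5 genes, DDX60, IFIH1, RSAD2, SAMD9 and SAMD9L, against 2.17% of all genes, and 0 of 41 differed by over 0.5 in the other direction. Between the RU-486 arrays no interferon-stimulated gene differed by over 0.5, where 0.38% of all genes did so with replicate 2 higher. Between the combination arrays only CXCL11 did, lower on replicate 2, against 0.407% of all genes.

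**Figure D2:**
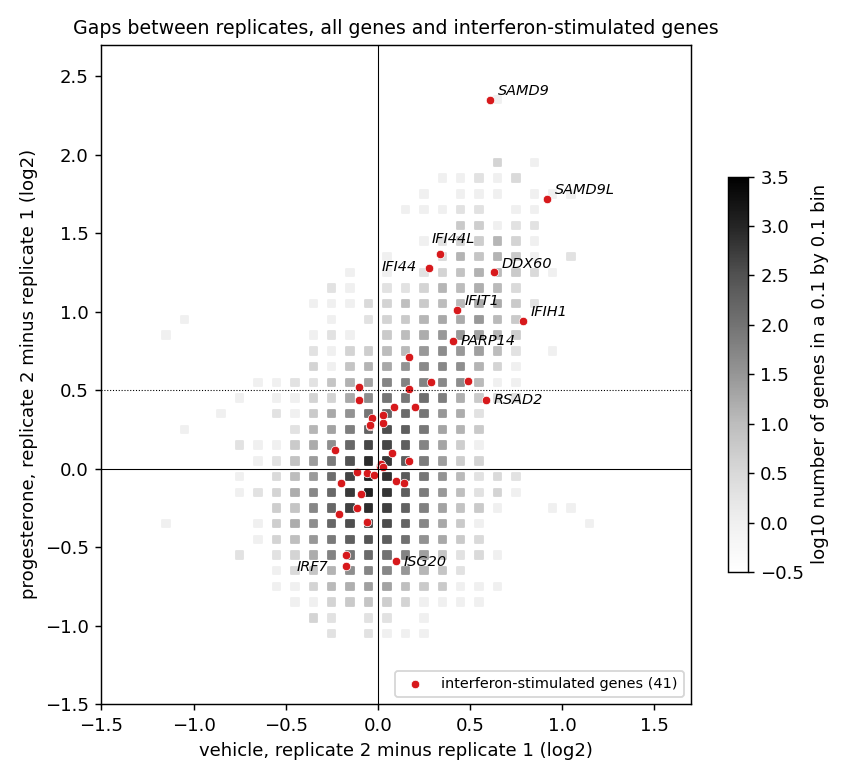
Replicate 2 minus replicate 1 in log2 units for vehicle (horizontal) and progesterone (vertical); red points are the 41 interferon-stimulated genes and grey squares count all genes in bins of 0.1 by 0.1. SAMD9 sits at the top with a progesterone gap of 2.35, 13 red points lie above the dotted line at 0.5, and IRF7 and ISG20 lie low at -0.62 and -0.59.

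The 13 genes with the large progesterone gap were chosen on that gap, and their values elsewhere are given as a description. On the vehicle arrays 12 of the 13 were higher on replicate 2 (median gap 0.41), on the RU-486 arrays 8 (0.16) and on the combination arrays 9 (0.12). Of the other 28 genes 13, 14 and 15 were higher on replicate 2 in the same order. Over all genes the shares were 46.4%, 56% and 46.6%. With the combination 12 of the 13 were below vehicle, with a median log2 difference of -0.61 and a range of -0.89 to 0.04. The other 28 had a median of 0.06 and ran from -0.52 to 0.22, and 32.5% of all genes were below vehicle. Of the 1294 genes of the whole array with such a gap, these 13 included, 91.9%, 88.4% and 80.4% were higher on replicate 2 with vehicle, RU-486 and the combination, and 95.7% were below vehicle with the combination, with a median of -0.54. The pattern is therefore not shown to be particular to interferon-stimulated genes. The 13 genes included 10 with a promoter window, 9 of which held an ISRE core, and the other 28 included 24 with a window, 15 of which held one. Within groups, a single axis of variation over all genes took 66.4% of the variance. Its largest weight was that of SAMD9. Among the top 5% of weights by size, on the side of progesterone replicate 2, were 8 of the 41 genes (19.5%), against 4.57% of all genes. The progesterone arrays differed more than the other replicates, and all 8 genes are among the 13 chosen on that gap. Their weights are therefore no separate observation. Among pairs of these genes that adjoin in the genome, the gaps were 1.37 and 1.28 for IFI44L and IFI44, 1.01 and 0.44 for IFIT1 and IFIT5, and 0.56 and 0.34 for IFIT2 and IFIT3. They differed in sign for CXCL10 and CXCL11, at 0.52 and -0.16.

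The sensors were both dim. IFIH1 (MDA5), which detects long double-stranded RNA, stood at 5.54 and 6.32 on the vehicle arrays, 5.37 and 6.31 with progesterone, 5.35 and 5.51 with RU-486, and 5.26 and 5.23 with the combination. DDX60, a helicase that promotes RNA sensing, stood at 5.92 and 6.55, 5.52 and 6.77, 5.67 and 6.06, and 5.33 and 5.36. For both the 2 combination arrays were the lowest of the 8, and the arrays of the vehicle and progesterone groups overlapped. The combination differed from vehicle by -0.68 ± 0.34 for IFIH1 (SE, limma adjusted p = 0.400). For DDX60 the difference was -0.89 ± 0.39 (limma adjusted p = 0.382). Both lie below the background percentile, where RMA values compress differences.

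The transcription factors showed little difference between treatments. IRF9, the DNA-binding part of the complex on the ISRE, kept within 8.89 to 8.97 on all 8 arrays, the narrowest range of the 41 genes at 0.08. IRF1, an activator that itself responds to interferon-gamma, ran from 7.25 to 7.74. IRF7, which drives interferon-alpha transcription, ran from 7.63 to 8.25 with its maximum on progesterone replicate 1.

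Among the effectors that act on double-stranded RNA, EIF2AK2 (PKR), the kinase that halts translation, was the one lower with the combination. It stood at 10.80 and 11.09 on the vehicle arrays, 10.64 and 11.19 with progesterone, 10.71 and 10.90 with RU-486, and 10.38 and 10.52 with the combination. The combination arrays were the 2 lowest, with a difference from vehicle of -0.49 ± 0.19 (SE, limma adjusted p = 0.374). The oligoadenylate synthetases, which activate RNase L, behaved otherwise. OAS1 stood at 7.23 and 7.31, 7.32 and 7.42, 7.18 and 7.22, and 7.50 and 7.33, so that its 4 arrays with progesterone lay above its 4 arrays without, by 0.16 ± 0.06 on average (limma adjusted p = 0.722). OAS3 stood at 8.25 and 8.21, 7.87 and 8.15, 8.09 and 7.94, and 8.30 and 8.27. Each steroid alone was below vehicle for OAS3 and the combination was not, an interaction of 0.49 ± 0.16 (limma adjusted p = 0.828). OAS2 ran from 6.06 to 6.67 and OASL from 6.18 to 6.42. Their means of 6.28 and 6.31 were close to the background percentile of 6.22, and both had arrays on either side of it.

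The IFIT proteins bind viral RNA that lacks the host cap marks. IFIT1 stood at 6.64 and 7.07 on the vehicle arrays, 6.42 and 7.43 with progesterone, 6.70 and 6.58 with RU-486, and 6.15 and 6.34 with the combination. IFIT2 stood at 6.25 and 6.73, 5.88 and 6.45, 6.10 and 6.14, and 5.98 and 6.12. The combination arrays lay below both vehicle arrays for IFIT1, IFIT2 and IFIT5. IFIT5 stood at 8.74 and 8.64, 8.16 and 8.60, 8.50 and 8.64, and 8.0 and 8.34, and differed between combination and vehicle by -0.52 ± 0.17 (SE, limma adjusted p = 0.374). On average over the arrays with progesterone against those without, IFIT5 differed by -0.36 ± 0.12 (limma adjusted p = 0.722). For IFIT1 the combination differed from vehicle by -0.61 ± 0.31 (limma adjusted p = 0.407). IFIT3, the partner that stabilises IFIT1, ran from 6.61 to 6.95.

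The ISG15 system attaches a ubiquitin-like modifier to proteins. ISG15, the modifier, stood at 7.35 and 7.38 on the vehicle arrays, 7.56 and 7.57 with progesterone, 7.44 and 7.36 with RU-486, and 7.49 and 7.46 with the combination. Its 4 arrays with progesterone lay above its 4 without, a difference of 0.14 ± 0.05 (SE, limma adjusted p = 0.722). Progesterone against vehicle gave 0.19 ± 0.07 (limma adjusted p = 0.741). The ligase HERC5 ran from 7.50 to 7.93, HERC6 from 7.95 to 8.23 and the deconjugating protease USP18 from 8.37 to 8.69. Another probe set assigned to both USP18 and USP41P was not used, and the array may not separate such copies.

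The membrane proteins and the dynamin-like GTPases had narrow ranges over the arrays. IFITM1, which blocks virus entry at the membrane, stood at 12.92 and 12.81 on the vehicle arrays, 12.84 and 12.82 with progesterone, 12.87 and 12.90 with RU-486, and 12.85 and 12.87 with the combination. BST2 (tetherin), which holds virions at the cell surface, ran from 8.70 to 8.97. MX1, which traps viral nucleocapsids, stood at 6.29 and 6.27, 6.19 and 6.15, 6.18 and 6.21, and 6.45 and 6.38. As for OAS3, MX1 was below vehicle with each steroid alone and above it with both, an interaction of 0.33 ± 0.10 (SE, limma adjusted p = 0.828). The mean of MX1 was 6.26, close to the background percentile of 6.22, and its arrays lay on both sides of that percentile. MX2, which acts on retroviral capsids, was dim at 4.97 and 5.08, 5.29 and 5.21, 5.10 and 5.28, and 5.13 and 5.22, with vehicle lowest.

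Of the other antiviral genes, RSAD2 (viperin), an enzyme that makes a chain-terminating nucleotide, was dim at 4.79 and 5.38 on the vehicle arrays, 5.42 and 5.86 with progesterone, 5.26 and 5.19 with RU-486, and 5.16 and 5.15 with the combination. Its progesterone arrays lay above both vehicle arrays, by 0.55 ± 0.21 (SE, limma adjusted p = 0.741), and the 2 vehicle arrays themselves differed by over 0.5. XAF1, a pro-apoptotic protein, stood at 6.06 and 6.0, 6.46 and 6.12, 6.01 and 5.98, and 5.91 and 5.98. CMPK2, a mitochondrial nucleotide kinase next to RSAD2 on chromosome 2, ran from 8.05 to 8.18. The exonuclease ISG20 ran from 6.53 to 7.12, with both extremes on the progesterone arrays. TRIM22, a ubiquitin ligase, ran from 6.28 to 6.99 with the same pair of arrays at its extremes. For SAMD9 and SAMD9L the combination differed from vehicle by -0.88 ± 0.66 and -0.89 ± 0.53 (adjusted p of 0.515 and 0.445 in limma), with the spread between the progesterone replicates in these errors.

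IFI27 and IFI44 varied between arrays in different ways, and neither passed the adjusted threshold with all 8 arrays. IFI27, a small mitochondrial protein, stood at 6.73 and 6.53 on the vehicle arrays, 6.92 and 6.83 with progesterone, 6.69 and 6.66 with RU-486, and 6.87 and 6.84 with the combination. Its 4 arrays with progesterone lay above its 4 without, whether RU-486 was present or not, by 0.21 ± 0.07 (SE, limma adjusted p = 0.722). IFI44 stood at 7.56 and 7.83, 6.65 and 7.93, 7.05 and 7.32, and 7.04 and 7.28. The arrays of RU-486 and of the combination lay below both vehicle arrays, by -0.54 ± 0.37 for the combination (limma adjusted p = 0.487). For IFI44L the combination differed from vehicle by -0.83 ± 0.38 (limma adjusted p = 0.387). The mean of IFI44L was 6.33, close to the background percentile of 6.22, and both combination arrays lay below that percentile. IFI6 ran from 9.58 to 10.00, IFI35 from 9.17 to 9.73 and the dim EPSTI1 from 5.02 to 5.35.

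PARP14, an ADP-ribosyltransferase, had the smallest p of the 41 genes for RU-486 on average (4 arrays with it against 4 without). It stood at 8.64 and 9.04 on the vehicle arrays, 8.28 and 9.09 with progesterone, 8.30 and 8.61 with RU-486, and 7.86 and 8.21 with the combination. The 2 combination arrays lay below all 6 others, and the RU-486 arrays below both vehicle arrays. The combination differed from vehicle by -0.81 ± 0.28 (SE, limma adjusted p = 0.374). PARP9, a relative that acts with the ligase DTX3L, ran from 8.64 to 9.07.

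CXCL10, a chemokine that attracts T cells, stood at 6.54 and 6.43 on the vehicle arrays, 6.15 and 6.67 with progesterone, 6.43 and 6.43 with RU-486, and 5.72 and 6.07 with the combination. Its combination arrays were the 2 lowest, at -0.59 ± 0.18 from vehicle (SE, limma adjusted p = 0.374), while RU-486 alone stayed at the level of the lower vehicle array. The mean of CXCL10 was 6.30, close to the background percentile of 6.22, and both combination arrays lay below that percentile. In the F test over the 4 groups CXCL10 had an unadjusted p of 0.0432 and MX1 one of 0.0448 (limma adjusted p = 0.639), 2 of 41 genes against 7.63% of all genes. CXCL11, a chemokine for the same receptor, was at background, from 4.07 to 4.67. LGALS3BP, a secreted glycoprotein, stood at 11.02 and 10.96, 10.98 and 10.95, 11.01 and 10.91, and 11.11 and 11.01. PSMB9, a catalytic subunit of the immunoproteasome, ran from 8.69 to 8.97.

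**Figure D3:**
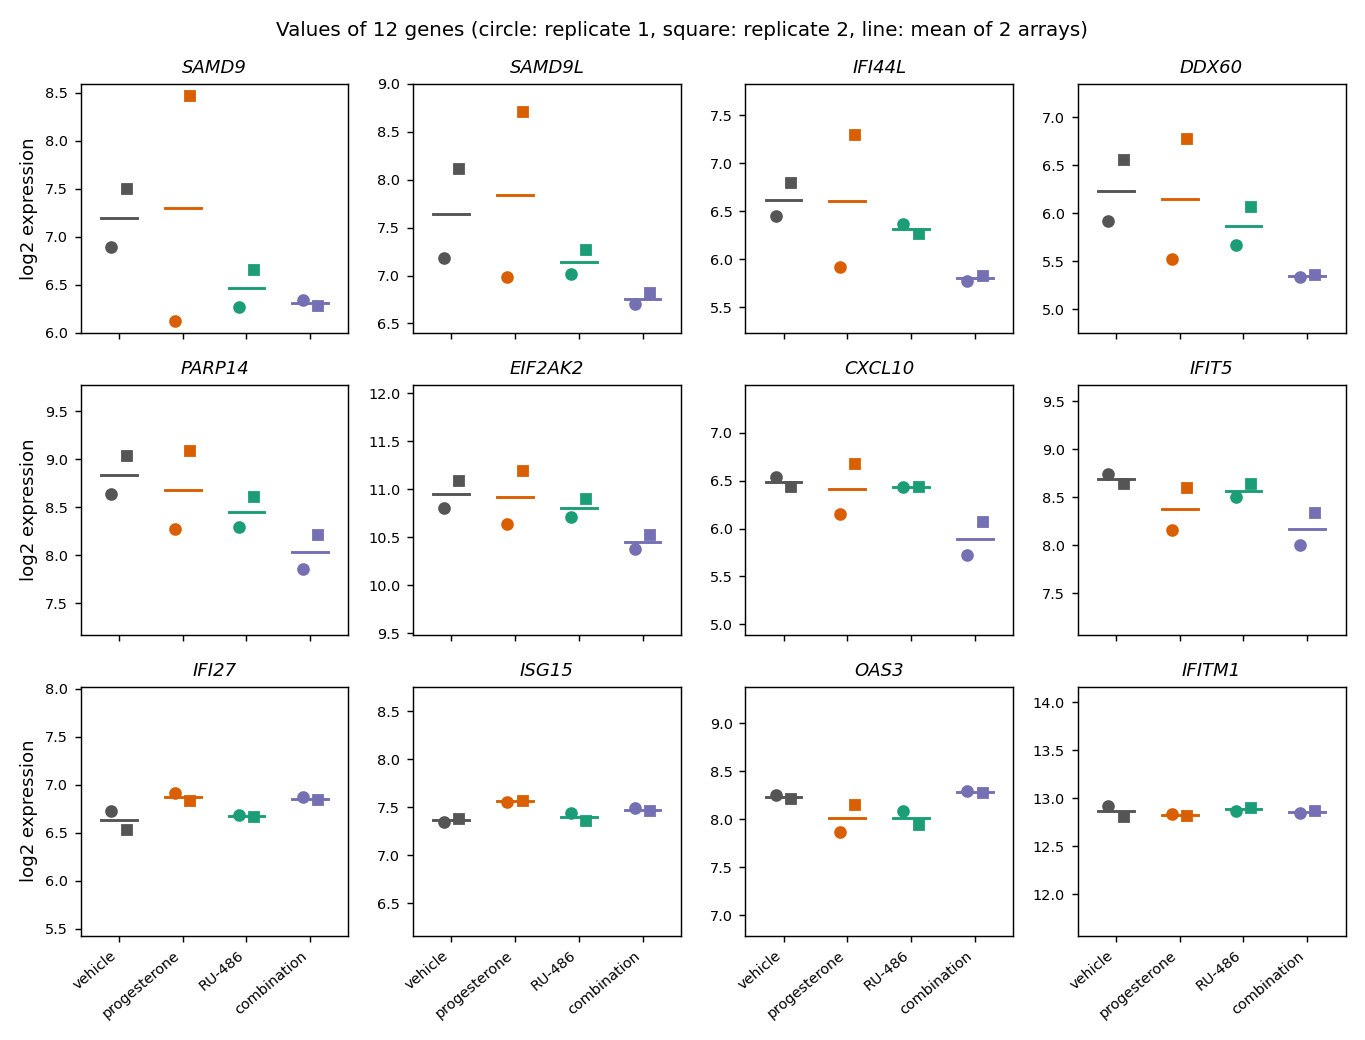
Log2 expression of 12 genes on each array, by treatment; circles are replicate 1, squares replicate 2, lines the mean of the 2 arrays, and every panel spans the same number of log2 units. The squares of SAMD9, SAMD9L, IFI44L and DDX60 stand far above the circles with progesterone, IFI27 and ISG15 are higher with progesterone and with the combination, and IFITM1 is flat.

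Among the 3 comparisons with vehicle, the combination had the most genes lower by over 1.5-fold. Of the 41 genes 8 were lower by over 1.5-fold, CXCL10, DDX60, IFI44L, IFIH1, IFIT1, PARP14, SAMD9 and SAMD9L, against 3.67% of all genes. Higher by over 1.5-fold were 0, against 0.147%. All 8 are among the 13 genes chosen on the progesterone gap. On the within-group axis the combination arrays scored 16.7 and 8.11, on the side of progesterone replicate 1 (21.8). The vehicle arrays scored -3.71 and -18.7, on the side of progesterone replicate 2 (-24.7), and the RU-486 arrays 4.23 and -3.84. With the axis as covariate in the limma fit, the median combination difference of all genes was 0.02, and the smallest adjusted p of the 41 genes was 0.43. The axis was taken from these same arrays, and its part in the difference was not tested. The 2 combination arrays lay below both vehicle arrays for 17 of 41, against 18.8% of all genes, and above both for 10 of 41, against 42.7%. Below 0 were 21 of 41, against 32.5% of all genes. The median difference of the 41 genes was -0.001 and that of all genes 0.074. At an unadjusted limma p under 0.05, 4 genes were lower (CXCL10, EIF2AK2, IFIT5 and PARP14, against 6.29% of all genes) and IFI27 was higher (against 6.92%), by 0.22 ± 0.09 (SE), and the smallest adjusted p was 0.374. With the replicate number as a block in the limma fit the count of lower genes was 9, against 10.2% of all genes, and again 0 passed the adjusted threshold (smallest limma adjusted p = 0.070, for PARP14). Over all alternatives the smallest adjusted p of the 41 genes in this comparison ran from 0.070 to 0.906.

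RU-486 was compared over its 4 arrays against the 4 without it, which uses the progesterone arrays among the latter. The average difference was lower than 0 for 26 of 41 genes, against 37.5% of all genes, with a median of -0.063 against 0.032. DDX60 (-0.59 ± 0.28), SAMD9 (-0.86 ± 0.46) and SAMD9L (-0.79 ± 0.37) were lower by over 1.5-fold, against 0.923% of all genes. Without progesterone replicate 2 these differences were -0.28, -0.27 and -0.36, each under 1.5-fold. For none of the 41 did the arrays with and without RU-486 fail to overlap, where 1.09% of all genes were separated as lower and 4.51% as higher. At an unadjusted limma p under 0.05 only PARP14 was lower (-0.52 ± 0.20, limma adjusted p = 0.434), against 4.49% of all genes, and 0 were higher, against 6.53%. The next smallest adjusted p-values were those of IFIH1 (-0.55 ± 0.24, limma adjusted p = 0.454), XAF1 (-0.19 ± 0.08, 0.459), EIF2AK2 (-0.30 ± 0.13, 0.460) and CXCL10 (-0.29 ± 0.13, 0.462). With the replicate block 8 genes were lower at an unadjusted p under 0.05, against 8.55% of all genes. Over all genes 6 passed the adjusted threshold, all higher (0.0326%), and none of these was an interferon-stimulated gene.

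A single array decided whether this comparison gave calls. The 8 genes named next are all among those chosen on the progesterone gap. Leaving out progesterone replicate 1 keeps only the progesterone array on which they were higher, so their fall there is no separate observation. Without progesterone replicate 1, 8 genes fell with RU-486 at a limma adjusted p under 0.05: SAMD9 (-1.45), SAMD9L (-1.22), DDX60 (-0.90), IFI44L (-0.90), PARP14 (-0.72), IFIT1 (-0.70), IFI44 (-0.64) and EIF2AK2 (-0.44), with adjusted p-values of 0.0403 to 0.0496. In that fit 4% of all genes fell and 1.42% rose, and the 1 remaining progesterone array is assumed to vary like the other groups. Without any other array, 0 of the 41 genes passed, and without progesterone replicate 2 the smallest limma adjusted p was 0.198. In that fit SAMD9 stood at -0.27, SAMD9L at -0.36, IFI44L at -0.22, IFI44 at 0, PARP14 at -0.32, IFIT1 at -0.19 and EIF2AK2 at -0.16. Over all alternatives the smallest adjusted p ran from 0.0403 to 0.933.

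RU-486 alone against vehicle gave fewer genes lower by over 1.5-fold than RU-486 on average. Some differences were smaller, such as -0.5 against -0.79 for SAMD9L, and some larger, such as -0.51 against -0.32 for IFI44. The RU-486 arrays lay below both vehicle arrays for 14 of 41 genes, against 15.7% of all genes, and above both for IRF9, MX2 and OASL, against 24%. SAMD9 alone was lower by over 1.5-fold, against 0.13% of all genes. At an unadjusted limma p under 0.05, 0 genes were lower (0.95% of all genes) and 0 higher (2.15%), and the smallest p was that of OAS3 (-0.21 ± 0.11, limma adjusted p = 1). IFIT2 differed by -0.37 ± 0.21 and MX2 by 0.16 ± 0.10. With the replicate block 2 genes, IFIT2 and PARP14, were lower at an unadjusted limma p under 0.05, against 2.47% of all genes. The median over the 41 genes was -0.051 and over all genes 0.014.

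With all 8 arrays, none of the 41 genes passed the adjusted threshold for progesterone. Over the 4 arrays with it against the 4 without, IFI27, ISG15 and OAS1 did not overlap and were higher, against 2.02% of all genes, and 0 genes were separated as lower (0.836%). The same 3 genes were the ones higher at an unadjusted limma p under 0.05 (3.2% of all genes), and CXCL10 (-0.31 ± 0.13) and IFIT5 were lower (1.83%). None came under an adjusted p of 0.722. With the replicate block 4 were lower, CXCL10, CXCL11, IFIT5 and PARP14, against 6.22% of all genes. Against vehicle alone, IFI27 (0.25 ± 0.09), RSAD2, ISG15 and MX2 (0.23 ± 0.10) were higher at an unadjusted limma p under 0.05, against 3.68% of all genes, and 0 were lower, against 2.45%. With progesterone 0 of the 41 genes were above vehicle by over 1.5-fold, against 0.0706% of all genes, and 0 were below it, against 0.179%. The progesterone arrays lay above both vehicle arrays for 8 of 41 genes (CMPK2, IFI27, ISG15, MX2, OAS1, OASL, RSAD2 and XAF1), against 16.3% of all genes, and below both for CXCL11, IFIT5, MX1 and OAS3, against 15.8%. This comparison, too, turned on 1 array: without progesterone replicate 2, XAF1 rose by 0.43 (limma adjusted p = 0.0450), against 4.96% of all genes that rose, while IFI44 (-1.05, adjusted p = 0.0420) and IFI44L (-0.70, adjusted p = 0.0472) fell, against 1.7%. IFI44 and IFI44L are among the genes chosen on the progesterone gap, and the array kept is the one on which they were lower. XAF1 is below the background percentile, and the 1 remaining progesterone array is again assumed to vary like the other groups. Without progesterone replicate 1 instead, the differences had the opposite sign, 0.23 for IFI44 and 0.67 for IFI44L, with SAMD9 at 1.28 and SAMD9L at 1.06, and none passed (limma adjusted p of 0.647 or above). Over all alternatives the smallest adjusted p of the 41 genes ran from 0.0420 to 1.

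The interaction, the difference of the combination from the sum of the 2 single effects, had a median of -0.065 over the 41 genes and 0.012 over all genes. MX1 and OAS3 had an unadjusted limma p under 0.05, both positive, against 3.68% of all genes, and 0 were negative at that p (1.6%). With the replicate block IRF1 was a further positive one, 3 in all against 4.81% of all genes, and RSAD2 was negative, against 3.36%. RSAD2 (-0.62 ± 0.29) and SAMD9L were negative by over 1.5-fold, against 0.597% of all genes. Without progesterone replicate 2 the interaction was 0.27 for SAMD9L and -0.40 for RSAD2, and without replicate 1 it was -1.45 and -0.84. The comparisons of RU-486, progesterone and the combination with vehicle share the 2 vehicle arrays, and their values for a gene are therefore not independent.

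**Figure D4:**
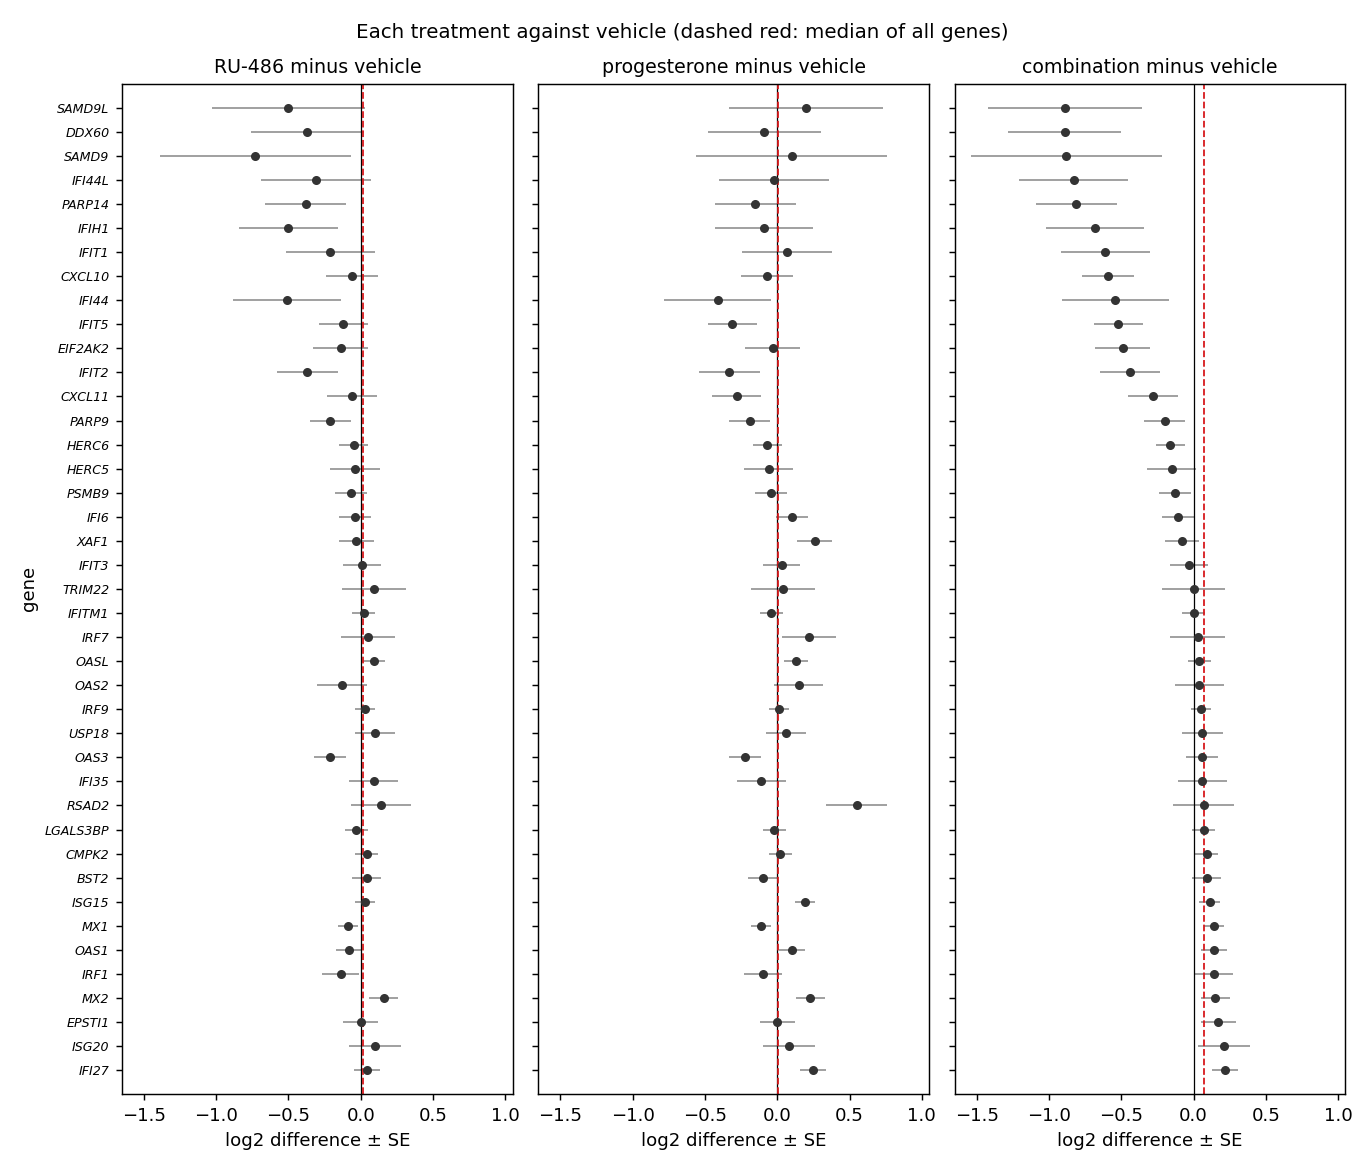
Log2 difference from vehicle with its SE for the 41 genes, in the same order in the 3 panels (RU-486, progesterone, combination); the dashed red line is the median of all genes, at 0.014, 0.004 and 0.074. The lowest points in the combination panel are DDX60 and SAMD9L at -0.89, and the error bars of SAMD9 are the widest in each panel.

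The rest of the interferon pathway was followed with lists of its other genes, and 0 genes of any list passed the adjusted threshold for the average RU-486 effect, the average progesterone effect or the combination. Of 21 interferon ligand genes 16 were measured, and 13 of these were at or below background, IFNB1 at 3.91 and IFNG at 3.62 among them. The 3 above it were the interferon-lambda genes IFNL1 (6.88), IFNL2 (6.58) and IFNL3 (8.41), of which the last 2 are near-identical copies that the array may not separate. For the average RU-486 effect and the combination, the smallest p-values among the ligands were those of IFNA10 (-0.18 ± 0.07 for RU-486 on average, limma adjusted p = 0.439) and of IFNW1 (0.32 ± 0.14 for the combination, limma adjusted p = 0.378), both at background.

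Of 11 receptor and transducer genes 10 were measured. IFNAR1, a chain of the type I receptor, differed by -0.55 ± 0.21 between combination and vehicle (SE, limma adjusted p = 0.374), and JAK2, the kinase of the interferon-gamma receptor, by -0.57 ± 0.26. These same 2 genes were the ones of the list with a progesterone gap over 0.5, at 0.62 and 0.86. IFNAR2, the other chain, differed by 0.20 ± 0.09 for RU-486 on average (limma adjusted p = 0.465).

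All 10 nucleic acid sensing genes were measured. TLR3, the endosomal sensor of double-stranded RNA, stood at 8.36 and 8.86 on the vehicle arrays, 8.12 and 8.97 with progesterone, 8.19 and 8.49 with RU-486, and 7.73 and 7.81 with the combination. TBK1, the kinase that activates IRF3, stood at 8.85 and 9.29, 8.60 and 9.39, 8.64 and 8.85, and 8.21 and 8.46. For both the combination arrays were the 2 lowest of the 8, and the combination stood at -0.84 ± 0.28 and -0.74 ± 0.26 from vehicle (SE, with a limma adjusted p of 0.374 each). The cytoplasmic sensor RIGI, named after its values were seen, was the third gene of this list with a progesterone gap over 0.5 (0.80) and differed by -0.59 ± 0.24 (limma adjusted p = 0.374). CGAS, the DNA sensor, was dim and differed by 0.17 ± 0.06 for RU-486 on average (limma adjusted p = 0.434).

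Of the 10 inhibitors, 2 of which, ISG15 and USP18, are also among the 41 genes, all were above background. PTPN11, a phosphatase, differed by -0.38 ± 0.11 between combination and vehicle (SE, limma adjusted p = 0.374), PIAS1, a repressor of cytokine signalling, by -0.30 ± 0.11, and SOCS3, which blocks JAK kinases, by 0.20 ± 0.08 (limma adjusted p = 0.374 for both). Antigen presentation was represented by 7 of 12 genes, and 0 of them had an unadjusted limma p under 0.05 for RU-486, progesterone or the combination. The peptide transporter genes TAP1 and TAP2 differed by 0.17 ± 0.10 and 0.16 ± 0.10 between combination and vehicle, and the loading factor TAPBP by 0.11 ± 0.08. Of 23 other interferon-induced genes 20 were measured. UBE2L6, the conjugating enzyme for ISG15, differed by 0.28 ± 0.10 between combination and vehicle, GBP3, a guanylate-binding protein with a mean of 6.20 that is not above background, by -0.56 ± 0.23 and ZC3HAV1, which binds viral RNA, by -0.32 ± 0.12 (limma adjusted p = 0.374 for each). GBP3, IFI16 and SP100, the last 2 named after their values were seen, had progesterone gaps of 0.54, 0.72 and 0.79.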

How the data were processed

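The deposited table holds log2 values of 33297 probe sets on each of the 8 arrays. The authors' tools were RMA, oligo and limma, as the submitters' processing notes list them, with versions and settings not given in the sources used here. RMA equalises the distributions of the arrays, so a shift shared by most genes is removed and low values are compressed. For 19460 probe sets the platform annotation gives 1 symbol, for 1754 several, and it does not name a gene for 12083. Groups were taken from the titles. Group means over all 8 arrays were fitted with limma 3.58.1 (lmFit, eBayes) in R 4.3.3 with Benjamini-Hochberg adjustment over 18417 genes and no filter on dim genes, and the script was tested on simulated data. The 41 genes and all lists were chosen with earlier results of these data known. Values on every array are given for the genes with the smallest p in each comparison (5 or 3), the 3 with the highest mean and the 3 whose progesterone arrays differed most; DDX60, IFI44, IFIH1, IFIT1 and others given beyond this were chosen after their values were seen. The labels number the replicates, and the differences between replicates 2 and 1 correlated between all pairs of groups (r = 0.20 to 0.51 over all genes). From the data, and not from any label, the numbers were taken as pairing the arrays in an alternative fit with a replicate block. Errors and p-values of single genes are from the fit without this block unless stated, and so leave the pairing out. For the combination against vehicle the block changed the SE from 0.28 to 0.13 for PARP14 and from 0.19 to 0.11 for EIF2AK2. For ISG20 it went from 0.18 to 0.19. Alternatives were this block, leaving out each array, quantile normalization, median centring, a background filter, mean probe sets, trended robust eBayes, array weights and the within-group axis as covariate. The number of arrays limits the precision.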

Additional observations from a re-analysis of the deposited data

How the results depend on the processing

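Over 13 counts and medians of the interferon-stimulated genes and their alternatives, 206 of 208 values stayed the same, a median counting as the same when it moved by less than the spread between replicate arrays (SD 0.201). That spread is larger than every median here, so this says nothing about a median's sign. The 2 exceptions rest on single arrays, and all of their genes except XAF1 are among those chosen on the progesterone gap. For the average RU-486 effect the number of genes past the adjusted threshold was 8 without progesterone replicate 1 and 0 otherwise, so that leaving out each array gave 0 to 8. For progesterone against vehicle it was 3 without progesterone replicate 2, a range of 0 to 3. Of 378 values of single genes 376 kept their call, and PARP14 and EIF2AK2 passed without progesterone replicate 1. No single gene had a call in the fit of all 8 arrays, so a kept call only meant staying above the threshold with the same sign. With the replicate number as a block, 0 interferon-stimulated genes passed in any comparison, and 0 calls changed. Over all genes the average RU-486 effect gave 6 calls, against 12 with dim genes left out, 43 with a trended robust prior, 11 with the within-group axis as covariate, 998 without progesterone replicate 1 and 0 without vehicle replicate 1. Over all alternatives the median for progesterone against vehicle ran from -0.135 to 0.131, as 1 or the other progesterone array was left out. That of the interaction ran from -0.127 to 0.093, that of the average progesterone effect from -0.04 to 0.032 and that of the combination from -0.06 to 0.021. For RU-486 on average the median ran from -0.102 to -0.014, and for RU-486 against vehicle from -0.055 to -0.005. The upper end of both RU-486 ranges came with the within-group axis as covariate. The causes were not tested. Of the 41 genes 8 lie at or below background, where the size of a difference is not measured well.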
